A study of Mus musculus with 8 samples.

Results

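Extracellular matrix proteases and the proteins that restrain them were followed in mouse melanoma cells by 10 genes, Mmp2, Mmp3, Mmp9, Mmp13, Mmp14, Timp1, Timp2, Timp3, Plau and Plaur, of 16593 genes named on the array. The genes were chosen by name, and every probe annotated to one of them was taken, which gave 16 of 25697 probes. RNA came from 5555-mEGFP cells, a mouse melanoma line that carries a green fluorescent protein, on Illumina mouse BeadChips in 4 groups of 2 arrays. The cells were grown alone (mono-culture) or in contact with MAF2-mCherry cells, a line of melanoma-associated fibroblasts (co-culture), and were given either DMSO at 0.1% as vehicle or PLX4720, an inhibitor of mutant BRAF, for 24 h. The labels give the PLX4720 dose as 1 mM, and no source used here settles if micromolar was intended. Whether the PLX4720 arms also held DMSO is not given in the sources used here. Green cells were sorted from the co-cultures by flow cytometry. Whether mono-cultures also passed the sorter is not given. One melanoma line and one fibroblast line were used, and nothing states that the 2 arrays of a group came from separate cultures, so p-values measure the spread between these arrays, which may be technical.

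Matrix metalloproteinases are zinc enzymes that are made as inactive proforms and cleave collagens and other matrix proteins once their propeptide is removed. TIMP proteins bind the active site of these enzymes and block them, while TIMP2 at low amounts also helps the membrane-bound MMP14 to activate pro-MMP2. The urokinase system works beside them. Urokinase, the product of Plau, binds its receptor Plaur at the cell surface and turns plasminogen into plasmin, which degrades matrix and activates other proteases. Both systems are known for their part in tumour cell invasion, and several of their genes carry AP-1 and ETS sites that respond to ERK signalling.

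The arrays were alike in quality. Between 9755 and 10021 probes were detected on each, and replicates correlated with r of 0.990 to 0.995 across 7357 genes. Genes known to report ERK output, the pathway below BRAF, were lower with PLX4720 for 10 of 13 tested in mono-culture and 10 of 13 in co-culture, against 18.6% and 12.7% of all genes, and 1 of the 13, Egr1, was higher in co-culture (log2 fold change 0.90, adjusted p = 0.00123, limma). Etv1, Etv5 and Myc, which are among the 10 in each culture, were detected on no PLX4720 array and entered the test through DMSO arrays alone. Their calls are therefore not read, and both counts of 10 are larger for including them. Etv4, Fosl1 and Spry4 were not detected with PLX4720 in mono-culture. Melanocyte lineage markers were absent, with 0 of 8 that had a probe detected on any array, Mlana, Tyr and Dct among them. Of 16 fibroblast markers, 11 were tested and Dcn, Lum, Thy1, Fap and Postn were detected on no array.

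The promoters of 7 of the 10 genes were found in the RefSeq table (GRCm38.p6) as 250 bases before and 50 bases after the start that the table gives. For Plaur that start lies inside the annotated gene, downstream of the gene's first base at position 24460937 of chromosome 7, and for the other genes shown it is the first base of the gene. They were searched on both strands for the AP-1 site TGANTCA and for AGGAAG, an ETS site of the PEA3 kind. The AP-1 letters were present in 3 of these 7 promoters, and in 7.81% of 32851 promoters of the same length. AGGAAG was present in 6 of 7, all but Timp2, and in 35.4% of all promoters. A match describes these letters and is no measured binding site. The bases before the start are shown for 3 pairs, with matches to either site in capitals, because the pairs stand for the 3 patterns on the arrays: Timp1 and Plaur, which were lower with PLX4720, Timp3 and Mmp14, which were higher, and Mmp3 and Mmp13, which were not detected.
Timp1: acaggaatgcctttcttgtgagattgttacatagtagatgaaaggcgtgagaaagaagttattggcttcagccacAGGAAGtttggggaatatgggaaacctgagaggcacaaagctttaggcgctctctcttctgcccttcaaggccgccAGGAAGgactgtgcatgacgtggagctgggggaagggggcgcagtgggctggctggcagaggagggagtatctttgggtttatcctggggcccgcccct
Plaur: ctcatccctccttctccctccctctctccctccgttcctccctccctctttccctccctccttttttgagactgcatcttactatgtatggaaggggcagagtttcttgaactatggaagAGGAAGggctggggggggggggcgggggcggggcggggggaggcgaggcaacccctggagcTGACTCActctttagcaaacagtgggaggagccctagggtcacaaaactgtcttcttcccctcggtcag
Timp3: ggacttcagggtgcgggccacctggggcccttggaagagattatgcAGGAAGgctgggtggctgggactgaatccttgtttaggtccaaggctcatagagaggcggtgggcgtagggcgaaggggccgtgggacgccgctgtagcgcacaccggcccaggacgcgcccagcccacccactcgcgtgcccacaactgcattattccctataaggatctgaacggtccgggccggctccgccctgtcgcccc
Mmp14: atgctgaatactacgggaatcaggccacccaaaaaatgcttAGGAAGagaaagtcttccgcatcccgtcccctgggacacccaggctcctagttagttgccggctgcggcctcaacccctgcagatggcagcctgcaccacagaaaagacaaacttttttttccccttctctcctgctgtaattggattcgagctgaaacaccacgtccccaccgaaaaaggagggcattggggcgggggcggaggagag
Mmp3: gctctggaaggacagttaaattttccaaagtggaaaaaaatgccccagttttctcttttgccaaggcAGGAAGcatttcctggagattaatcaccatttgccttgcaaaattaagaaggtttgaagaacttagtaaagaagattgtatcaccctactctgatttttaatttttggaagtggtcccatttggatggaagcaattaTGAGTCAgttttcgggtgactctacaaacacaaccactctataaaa
Mmp13: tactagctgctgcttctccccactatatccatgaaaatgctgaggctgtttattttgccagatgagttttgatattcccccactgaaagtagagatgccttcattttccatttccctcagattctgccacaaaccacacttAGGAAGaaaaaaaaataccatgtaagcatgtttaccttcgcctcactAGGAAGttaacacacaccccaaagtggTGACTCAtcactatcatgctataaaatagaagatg
These runs lie on the plus strand at chrX:20869916-20870165 for Timp1, chr7:24462233-24462482 for Plaur, chr10:86300162-86300411 for Timp3, chr14:54431348-54431597 for Mmp14, chr9:7445572-7445821 for Mmp3 and chr9:7272264-7272513 for Mmp13. The AP-1 match spans bases -69 to -63 from the table's start in Plaur, -46 to -40 in Mmp3 and -35 to -29 in Mmp13. Timp1, Timp3 and Mmp14 held no AP-1 match, so the genes with these letters were 1 that was lower with PLX4720 and 2 that were not detected. Further AGGAAG matches lie after the start of Timp1 and Plaur and are not shown.

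Mmp3, Mmp13 and Mmp9, the genes of stromelysin-1, collagenase-3 and gelatinase B, were not detected in any condition. A probe counted as detected at a detection p under 0.01, the p of its signal against the negative controls of the array. The 3 probes of Mmp3 had deposited intensities of 113.9 to 141.2 over the 8 arrays, with the lowest detection p at 0.0952. The 3 probes of Mmp13 ranged from 115.7 to 145.9, with the lowest detection p at 0.0564. The single probe of Mmp9 ranged from 131.6 to 150.7, and its lowest detection p, 0.0301, was on a co-culture DMSO array. None of these 7 probes was detected on any array, so no fold change is given, and this limits only what these probes can show. In the plot of dim probes all their points lie between 113.9 and 150.7.

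**Figure D1:**
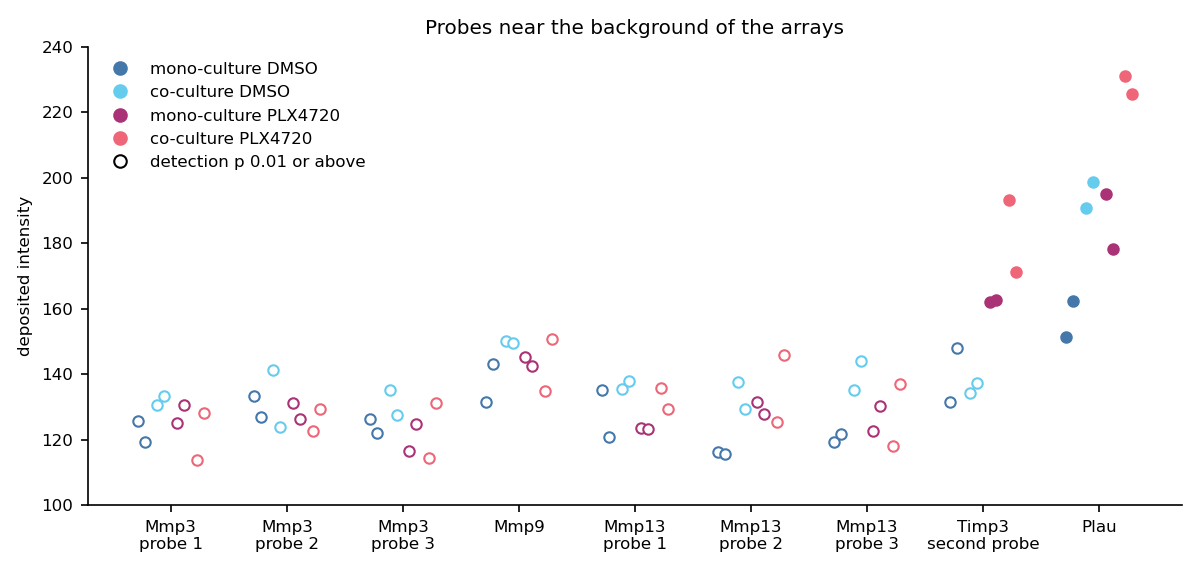
Deposited intensity (vertical axis from 100, linear, not normalized) of the 7 probes of Mmp3, Mmp9 and Mmp13, the second probe of Timp3 and the probe of Plau on each of the 8 arrays, 1 point per array, coloured by group and filled where detection p was under 0.01. No point of Mmp3, Mmp9 or Mmp13 is filled, the second Timp3 probe is filled on the 4 PLX4720 arrays only, and Plau is filled on all 8.

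The other 7 genes were detected on all 8 arrays and were tested with limma across 7357 genes, with p adjusted over all of them by the method of Benjamini and Hochberg and a threshold of 0.05. Values below are log2 intensities after background correction and quantile normalization, and an SD is that of 2 arrays.

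PLX4720 went with a shift among these genes that was alike in kind in both cultures. The metalloproteinase genes Mmp2 and Mmp14 and the inhibitor gene Timp3 rose, whereas the inhibitor gene Timp1 and the urokinase receptor gene Plaur fell. In mono-culture 4 of the 7 tested genes were higher and 2 lower, against 20.2% and 18.6% of all genes tested. In co-culture 4 were again higher and 2 lower, against 14.3% and 12.7%. The median log2 fold change of the 7 was 0.56 in mono-culture and 0.45 in co-culture, beside 0.01 over all genes in each. Arrays of the drug and vehicle groups did not overlap for any of the 7 in either culture, which held for 71.5% of all genes in mono-culture and 65.6% in co-culture.

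Timp3 had the largest rise of the 7 in both cultures. TIMP3 is the TIMP that binds to the matrix and also inhibits ADAM and ADAMTS proteases. In mono-culture its log2 intensity was 9.35 and 9.17 in DMSO and 10.68 and 10.60 in PLX4720. In co-culture it was 8.79 and 8.91 in DMSO and 11.17 and 10.71 in PLX4720. Every PLX4720 array thus lay above every DMSO array by more than 1 log2 unit. The rise was 2.61-fold in mono-culture (log2 fold change 1.38 ± 0.16 SE, adjusted p = 0.000271) and 4.26-fold in co-culture (2.09 ± 0.16, adjusted p = 3.79e-05), where it ranked 35 of 7357 genes from the highest. A second, dim Timp3 probe was detected on the 4 PLX4720 arrays and on no DMSO array. Its signal was at least 1.07-fold higher with PLX4720 in mono-culture and at least 1.42-fold higher in co-culture. This probe was kept through its PLX4720 arrays alone, so no test of it is read. These bounds are taken against the lowest signal detected on each DMSO array.

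Timp1 moved the opposite way. TIMP1 is a secreted inhibitor of most soluble metalloproteinases and also acts on cells as a growth and survival factor. In mono-culture its log2 intensity was 13.72 and 13.85 in DMSO and 12.20 and 12.70 in PLX4720, and in co-culture 13.69 and 13.81 in DMSO and 12.37 and 12.25 in PLX4720. The 4 DMSO arrays were close to each other whatever the culture, and all 4 PLX4720 arrays lay below them, without overlap. Timp1 was 2.53-fold lower in mono-culture (log2 fold change -1.34 ± 0.17 SE, adjusted p = 0.000352) and 2.71-fold lower in co-culture (-1.44 ± 0.17, adjusted p = 0.000373). Its second probe gave -1.37 and -1.45, so both probes of the gene showed the same direction and size.

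Timp2, whose product both inhibits metalloproteinases and takes part in pro-MMP2 activation, had a smaller difference. Its log2 intensity was 12.76 and 12.97 in mono-culture DMSO and 13.06 and 13.28 in mono-culture PLX4720. In co-culture it was 12.71 and 12.68 in DMSO and 13.13 and 13.17 in PLX4720. The rise of 1.37-fold in co-culture passed the threshold (log2 fold change 0.45 ± 0.13 SE, adjusted p = 0.0318). In mono-culture the difference was 0.31 ± 0.13 (adjusted p = 0.0961), with a 95% interval of 0.01 to 0.61. Of the 3 inhibitor genes, Timp1 thus fell and Timp3 rose in both cultures, and Timp2 passed the threshold in co-culture. The co-culture call for Timp2 was lost without any one of the 4 co-culture arrays, with adjusted p of 0.0708 to 0.149.

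Mmp14 and Mmp2 rose by about the same factor. MMP14 is a collagenase anchored in the cell membrane, and MMP2, or gelatinase A, is the soluble enzyme whose proform it cleaves. Mmp14 had log2 intensities of 11.92 and 12.38 in mono-culture DMSO, 13.35 and 13.07 in mono-culture PLX4720, 12.07 and 11.94 in co-culture DMSO and 12.79 and 13.02 in co-culture PLX4720. Its rise was 2.08-fold in mono-culture (log2 fold change 1.06 ± 0.18 SE, adjusted p = 0.00161) and 1.87-fold in co-culture (0.90 ± 0.18, adjusted p = 0.00552). Mmp2 had log2 intensities of 8.73 and 8.94 in mono-culture DMSO and 10.18 and 9.61 in mono-culture PLX4720. In co-culture it was at 9.28 and 9.15 in DMSO and 9.99 and 10.02 in PLX4720. Its rise was 2.08-fold in mono-culture (1.06 ± 0.18, adjusted p = 0.00186) and 1.73-fold in co-culture (0.79 ± 0.18, adjusted p = 0.0114). For both genes the lowest PLX4720 array lay above the highest DMSO array. The co-culture call for Mmp2 did not hold without co-culture DMSO replicate 2 (adjusted p = 0.0758) or co-culture PLX4720 replicate 2 (adjusted p = 0.0585).

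The ligand and the receptor of the urokinase system differed. Plaur had log2 intensities of 9.15 and 8.81 in mono-culture DMSO and 8.25 and 7.41 in mono-culture PLX4720. In co-culture it was at 9.25 and 8.91 in DMSO and 8.21 and 8.14 in PLX4720. It was 2.21-fold lower with PLX4720 in mono-culture (log2 fold change -1.15 ± 0.25 SE, adjusted p = 0.00592) and 1.87-fold lower in co-culture (-0.90 ± 0.25, adjusted p = 0.0248). Plaur was also the gene of the 7 whose replicates differed most, with a residual SD of 0.34 beside a median of 0.15 over all genes, and its mono-culture PLX4720 arrays had an SD of 0.59. The co-culture call was lost without co-culture DMSO replicate 1, co-culture PLX4720 replicate 1 or co-culture PLX4720 replicate 2 (adjusted p of 0.0832 to 0.152).

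Plau, the protease itself, was dim. Its deposited intensities ran from 151.3 on a mono-culture DMSO array to 231.0 on a co-culture PLX4720 array. In log2 intensity it was at 5.60 and 5.66 in mono-culture DMSO, 6.42 and 5.97 in mono-culture PLX4720, 6.38 and 6.50 in co-culture DMSO and 6.999 and 6.66 in co-culture PLX4720. It rose 1.47-fold with PLX4720 in mono-culture (log2 fold change 0.56 ± 0.17 SE, adjusted p = 0.0303). In co-culture the difference was 0.39 ± 0.17 (adjusted p = 0.132). The size of the difference moved with the background correction. Without one the mono-culture value was 0.20 (adjusted p = 0.117), and the call was also lost without either mono-culture DMSO array or without mono-culture PLX4720 replicate 1 (adjusted p of 0.0804 to 0.206).

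**Figure D2:**
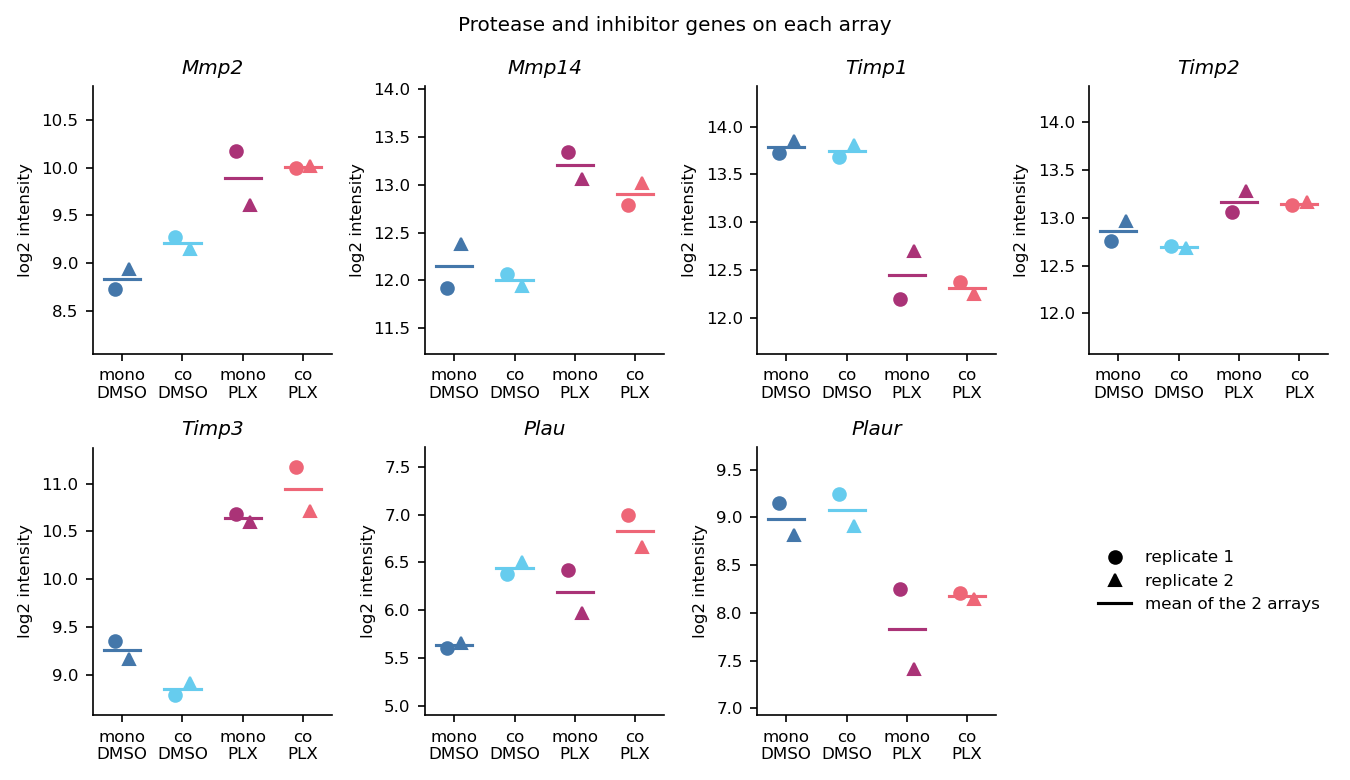
Log2 intensity after background correction and quantile normalization (vertical axis, a window of 2.8 log2 units in every panel) of the 7 detected genes in mono-culture and co-culture with DMSO or PLX4720 (PLX). Circles and triangles are replicates 1 and 2, bars the mean of the 2 arrays. Timp3, Mmp2 and Mmp14 are higher and Timp1 and Plaur lower on all PLX4720 arrays, while Plau is higher in co-culture than in mono-culture within each treatment.

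Fibroblast markers moved with the drug too. Of 11 tested, 6 rose with PLX4720 in mono-culture, where no fibroblasts were grown, and 6 in co-culture, against 20.2% and 14.3% of all genes, among them Pdgfrb (log2 fold change 1.36 and 1.95), Col5a1 (1.36 and 1.27) and Cd248 (1.37 and 1.73). The 6 include Col1a1, which was detected on no DMSO array and entered the test through its PLX4720 arrays alone, so its calls are not read. They also include Col1a2, which was detected on 1 DMSO array, in mono-culture, so its co-culture call is not read. Both counts of 6 are larger for including such calls. The level summed over the 11 markers was 3509 and 4504 in mono-culture DMSO, 4247 and 4181 in co-culture DMSO, 5272 and 6344 in mono-culture PLX4720 and 6621 and 6155 in co-culture PLX4720. Mmp2, Mmp14 and the TIMP genes are also expressed by fibroblasts. The rises of Mmp2, Mmp14 and Timp3 were measured in mono-culture as well as in co-culture, and the part of other cells in the co-culture values was not tested. In RNA from a whole culture or sorted fraction, a smaller share of one kind of cell and less RNA per cell cannot be told apart.

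Contact with fibroblasts changed none of the 7 genes past the threshold. In DMSO 0 of 7 were called, against 1.66% of all genes, and 2 had an unadjusted p under 0.05, Plau and Timp3. In PLX4720 0 of 7 were called, against 7.35%, and 1 had an unadjusted p under 0.05, Plau. Arrays of the culture groups did not overlap for 4 of 7 genes in DMSO, against 49.1% of all genes, and for 3 of 7 in PLX4720, against 54.3%.

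Plau came nearest to a culture difference. Its co-culture arrays lay above its mono-culture arrays in DMSO and again in PLX4720, without overlap. The difference was 1.75-fold in DMSO (log2 fold change 0.81 ± 0.17 SE, 95% interval 0.42 to 1.20, adjusted p = 0.0577), which ranked 51 of 7357 genes from the highest. In PLX4720 it was 1.56-fold (0.64 ± 0.17, 95% interval 0.25 to 1.03, adjusted p = 0.0557). Without background correction the difference was 0.30 in DMSO (adjusted p = 0.151) and 0.29 in PLX4720 (adjusted p = 0.0739). The adjusted p was below the threshold under 5 of 20 other settings in DMSO, down to 0.0244, and under 4 of 20 in PLX4720, down to 0.0321. Single arrays decided some of these, since the p in DMSO was 0.0351 without either mono-culture PLX4720 array, and in PLX4720 it was 0.0410 without mono-culture PLX4720 replicate 1 and 0.0487 without co-culture PLX4720 replicate 2. Beside this, 0 of 11 fibroblast markers were higher in co-culture in either treatment, where 46 of 7357 genes were higher in DMSO and 286 in PLX4720. Of the 11, 1, Col3a1, was lower in DMSO (-0.61, adjusted p = 0.0472), as were 76 of all genes. With so few genes called, 0 of 11 says little about fibroblast RNA in the co-culture samples, which was not tested.

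Timp3 was lower in co-culture than in mono-culture in DMSO (log2 fold change -0.41 ± 0.16 SE, adjusted p = 0.289) and higher in PLX4720 (0.30 ± 0.16, adjusted p = 0.283), without overlap of the arrays either time but short of the threshold. For Mmp2 the co-culture difference was 0.38 ± 0.18 in DMSO (adjusted p = 0.408) and 0.11 ± 0.18 in PLX4720. For Mmp14 it was -0.15 ± 0.18 and -0.30 ± 0.18. The intervals bound what may have been missed: in DMSO the 95% interval ran from -0.42 to 0.34 for Timp1, from -0.47 to 0.13 for Timp2 and from -0.46 to 0.66 for Plaur. In PLX4720 it ran from -0.51 to 0.24 for Timp1, from -0.32 to 0.28 for Timp2 and from -0.21 to 0.90 for Plaur.

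**Figure D3:**
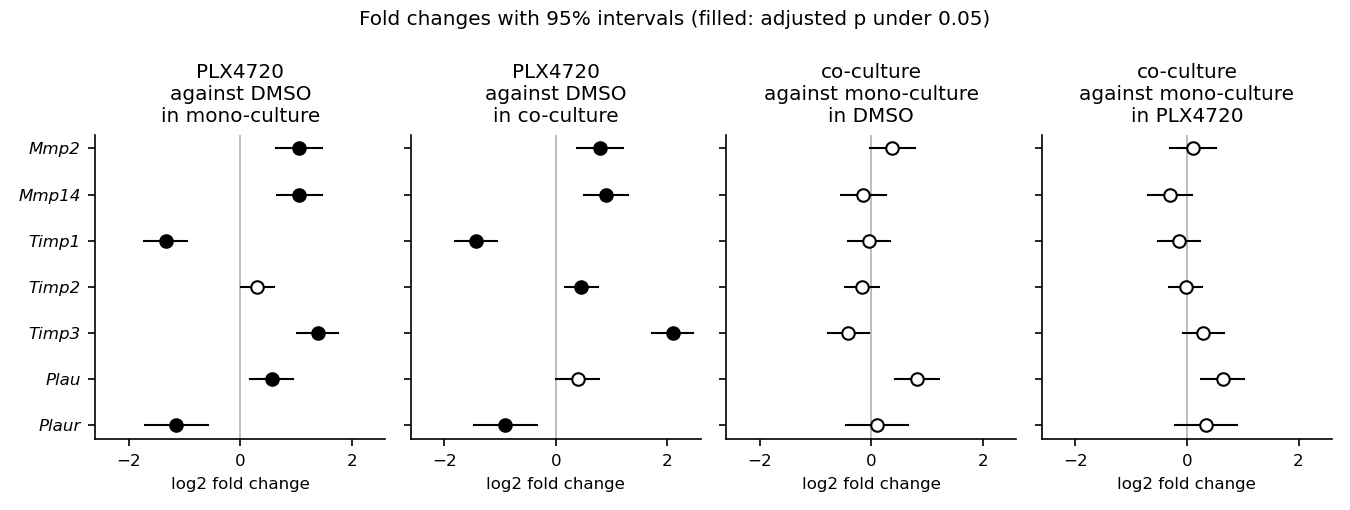
Log2 fold change (horizontal axis) of the 7 detected genes in the 4 comparisons, with 95% intervals from the limma fit on 8 arrays as lines, and circles filled where the adjusted p was under 0.05. In each of the 2 drug comparisons 6 circles are filled, and in the 2 culture comparisons 0.

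Whether the drug response differed between the cultures was asked of the difference between both PLX4720 effects. None of the 7 genes passed, against 0.122% of all genes (9 of 7357). Timp3 had the largest difference, 0.71 ± 0.23 SE on the log2 scale, with a 95% interval of 0.19 to 1.23 and an unadjusted p of 0.0130 (adjusted p = 0.186, limma). The second Timp3 probe was detected on no DMSO array, so its value for this difference is not read. For Timp1 the difference was -0.10 ± 0.24, for Mmp14 -0.16 ± 0.25, for Mmp2 -0.26 ± 0.26, for Timp2 0.15 ± 0.19, for Plau -0.17 ± 0.25 and for Plaur 0.24 ± 0.35. The interval for Timp1 ran from -0.63 to 0.44, so a moderate difference between the cultures in either direction was not detectable with these arrays.

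Other metalloproteinase genes were mostly not detected. Of 18 further family members, 15 had a probe, 10 were detected on no array and 5 were tested. Mmp11, which encodes stromelysin-3, rose with PLX4720 in both cultures, with a log2 fold change of 2.26 ± 0.17 SE in mono-culture (adjusted p = 3.19e-05) and 1.43 ± 0.17 in co-culture (adjusted p = 0.000473). Mmp16, a membrane-type relative of Mmp14, rose in co-culture (1.19 ± 0.19, adjusted p = 0.00207) and had a value of 0.46 in mono-culture. Mmp28, which encodes epilysin, fell in mono-culture (-0.56 ± 0.19, adjusted p = 0.0428), where it was detected on 1 of 2 PLX4720 arrays. Of the 5 tested, 1 was thus higher and 1 lower in mono-culture, near the shares of all genes (20.2% and 18.6%), and 2 were higher and 0 lower in co-culture (14.3% and 12.7% of all genes). Mmp1a, the mouse interstitial collagenase, was detected on all arrays and was not called in either culture (0.27 and -0.43).

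Among other inhibitors and regulators of metalloproteinases, 2 of 11 were tested. Reck, a membrane-anchored inhibitor, was detected on the 2 mono-culture PLX4720 arrays only, where its signal was at least 1.17-fold higher than in mono-culture DMSO. It entered the test through those arrays alone, and in co-culture it was not detected in either treatment. Its calls in both cultures are therefore not read. Furin, which cleaves the propeptide of MMP14, had values of 0.09 and 0.08.

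Of 17 other genes listed under plasminogen activation, 7 were tested, and 3 rose in both cultures, against 20.2% of all genes in mono-culture and 14.3% in co-culture. Serpinf1, which encodes the serpin PEDF, rose by 1.93 and 2.12 on the log2 scale (adjusted p = 0.000108 and 8.99e-05). Tgfbi, which encodes a matrix protein induced by TGF-beta, rose by 1.81 and 2.26. Plgrkt, a cell-surface plasminogen receptor, rose by 0.52 and 0.60. S100a10, part of the annexin A2 complex that binds plasminogen, fell in mono-culture (-0.65 ± 0.19, adjusted p = 0.0235) and had a value of 0.29 in co-culture. Neither Serpinf1 nor Tgfbi encodes a protease, a plasminogen activator or a plasminogen receptor. The count of 3 is therefore not read as a result about plasminogen activation. Plg was not detected on any array, and Plat on 1.

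ADAM and ADAMTS genes, whose enzymes shed membrane proteins and cleave proteoglycans, included 8 tested of 20. In both cultures 4 rose and 0 fell, where 20.2% of all genes were higher and 18.6% lower in mono-culture, and 14.3% and 12.7% in co-culture. Adamtsl4, which encodes an ADAMTS-like matrix protein without protease activity, rose by 1.61 and 2.54 on the log2 scale (adjusted p = 3.19e-05 and 2.37e-06). Adamts1 rose by 1.80 and 1.08, and Adam15 by 0.70 and 0.59. Adamts5, an aggrecan-cleaving enzyme, was detected on the 4 PLX4720 arrays and on no DMSO array. It was at least 2.53-fold higher in mono-culture and at least 2.78-fold higher in co-culture. It is counted among the 4 in each culture but entered the test through its PLX4720 arrays alone, so its calls are not read. As Adamtsl4 encodes no protease either, the count of 4 is not read as a result about ADAM and ADAMTS proteases. Adamtsl4 and Adamts7 were the protease-list genes called between the cultures, Adamtsl4 lower in co-culture in DMSO (-1.04 ± 0.13, adjusted p = 0.00446) and Adamts7 lower in co-culture in PLX4720 (-0.71 ± 0.18, adjusted p = 0.0430).

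Of 22 other matrix-cleaving proteases and cystatins, 12 were tested, and 4 rose and 1 fell in each culture. Of all genes, 20.2% rose and 18.6% fell in mono-culture, and 14.3% rose and 12.7% fell in co-culture. Htra1, which encodes a secreted serine protease, rose by 1.27 and 0.62 on the log2 scale. Pcolce, which encodes the enhancer of procollagen C-proteinase, rose by 1.00 and 0.88, Prss23 by 0.73 and 1.15, and Cst3, which encodes the cathepsin inhibitor cystatin C, by 0.60 and 0.98. Of the lysosomal cathepsins, Ctsh fell in co-culture (-1.23 ± 0.17, adjusted p = 0.000911). Ctsl, the gene counted as fallen in mono-culture, was detected on DMSO arrays only and entered the test through them. Its signal was at least 1.46-fold lower with PLX4720 in mono-culture, and its call is not read. The median log2 fold change of these 12 was 0.23 in mono-culture and 0.06 in co-culture, beside 0.01 over all genes.

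**Figure D4:**
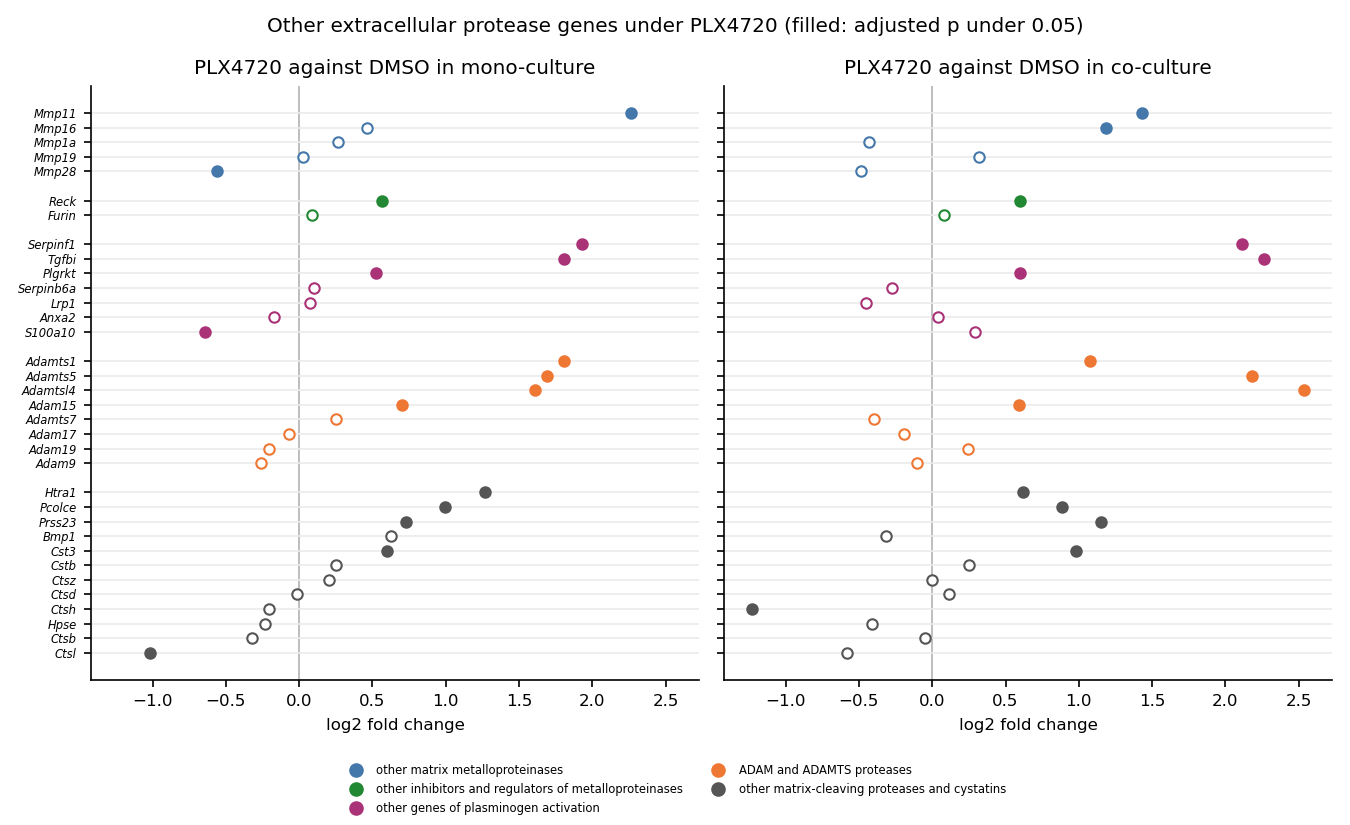
Log2 fold change with PLX4720 (horizontal axis) of the tested genes of 5 lists of further extracellular proteases and their regulators, in mono-culture and in co-culture, coloured by list and filled where the adjusted p was under 0.05. Serpinf1, Tgfbi, Mmp11, Adamts1, Adamts5 and Adamtsl4 lie above 1 in both panels. Reck was not detected on any co-culture array, Adamts5 on any DMSO array or Ctsl on any PLX4720 array.

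The genes whose 8 values were most like those of Timp3 were Adamts5 (Pearson r = 0.993), Lgals9 (0.991) and Steap2 (0.990), and those most like Timp1 were Mcm10 (0.997), Evi2a (0.992) and Emp3 (0.991). The 8 arrays fall into drug and vehicle arrays, so any gene with a strong drug response can reach such an r. Adamts5 was detected on no DMSO array, so its values there are background signal.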

How the data were processed

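For each array the authors deposited linear, non-normalized bead intensities together with detection p-values, and beside these a log2 table. The submitters' processing notes name lumi, with no version. The deposited log2 values equal quantile-normalized intensities without background subtraction. All columns were mapped to samples by their labels. Of 25697 probes, 23978 carried a gene symbol, and 23962 were matched to RefSeq genes. Intensities were corrected for background, quantile normalized and log2 transformed with neqc of limma 3.58.1 in R 4.3.3 (offset 16), which takes the negative controls from the detection p. Probes whose detection p fell under 0.01 on 2 or more of the 8 arrays were retained (10660 probes), and the retained probe with the highest mean stood for its gene. Group means of all 8 arrays were fitted with lmFit and eBayes, with 4 residual degrees of freedom and Benjamini-Hochberg adjustment over 7357 genes. The script was tested on simulated data. The 10 genes, the lists and the tests were chosen with earlier results of these data known. All 10 genes are named, and from each list the members that passed, or else those with the smallest p; other list members named were chosen after their values were seen. Alternatives covered background, scaling, filter, probe choice, array weights, replicate block, arrays used and Student's t-test.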

Additional observations from a re-analysis of the deposited data

Results flagged for a closer look

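The measured Timp3 differences between the cultures had opposite signs with and without drug, and neither passed the threshold: in DMSO its co-culture values were lower than both mono-culture values (log2 difference -0.41), and in PLX4720 they were higher (0.30). The difference between both, 0.71, was tested and did not pass after adjustment (adjusted p = 0.186, limma).

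Other genes of the lists also had arrays that moved in opposite directions between 2 such comparisons, and none of these differences passed after adjustment (adjusted p of 0.0928 to 0.294, limma). How often this occurred over all genes was not counted, so the number of such genes is not read. The difference of the PLX4720 effect between co-culture and mono-culture was -0.83 for Mmp11, -0.70 for Mmp1a, 0.94 for S100a10, -0.37 for Serpinb6a, -1.03 for Ctsh and -0.65 for Htra1. For the ERK output genes Etv1 and Phlda1 it was 0.85 and 1.30. Etv1 was detected on no PLX4720 array in either culture, so its values there are background signal. The value of 0.85 for Etv1 is therefore not read as a reversal. With 2 arrays a group, non-overlap in a single comparison held for 49.1% to 71.5% of all genes, and these values have no replicate check beyond the fit.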

How the results depend on the processing

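Each value was computed under 20 other settings, 8 of which leave out 1 array, except that the t-test and the fit on 4 arrays give no value for the difference of drug effects. Of 686 values of single genes, 627 kept their direction and side of the threshold, 30 lost and 11 gained a call, and 18 changed sign. Arrays limit the precision through their number, 2 a group, and Plau is further limited by a signal near background.

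Genes called between the cultures in DMSO went from 0 to 1 with detection on all 8 arrays, array weights or only the 4 arrays compared, and ranged from 0 to 1 over left-out arrays. In PLX4720 they went from 0 to 1 with normexp at an offset of 50 or detection on all 8 arrays, and from 0 to 1 over left-out arrays. Each time the gene was Plau. With the methods' t-test on 2 against 2 arrays, 0 genes were called with PLX4720 in mono-culture and 0 of them in co-culture. Over all genes it called 0 and 7. At an unadjusted p under 0.05 it called 2241 and 1950 of all genes. Over left-out arrays 5 to 6 genes were called with PLX4720 in mono-culture and 3 to 6 in co-culture, the 3 without co-culture PLX4720 replicate 2. The cause was not tested.

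Over settings other than left-out arrays and the t-test, calls over all genes ran from 65 to 244 between the cultures in DMSO (122 as reported), from 190 to 887 in PLX4720 (541) and from 6 to 148 for the difference of drug effects (9). Over left-out arrays they ran from 17 (without co-culture DMSO replicate 1) to 141 between the cultures in DMSO, from 15 (without co-culture PLX4720 replicate 1) to 625 in PLX4720, from 1928 to 3054 with PLX4720 in mono-culture (2850), from 992 (without co-culture DMSO replicate 1) to 1946 in co-culture (1987) and from 2 to 35 for the difference of drug effects, so the shares of all genes printed beside the members move with single arrays.

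Median scaling moved the median of all genes to 0.10 between the cultures in PLX4720 and to 0.16 for the difference of drug effects. It turned the culture difference in PLX4720 to 0.0515 for Timp1 and 0.0897 for Timp2, and the difference of drug effects to 0.0369 for Mmp14 and 0.0626 for Timp1, all below those shifts. It changed the split of all calls to 339 higher and 112 lower between the cultures in PLX4720, 1098 and 567 with PLX4720 in co-culture and 85 and 25 for the difference of drug effects. It took the co-culture call of Timp2 to an adjusted p of 0.0533. Without a filter on dim probes Plaur in co-culture was at 0.0678, and without background correction Timp2 in mono-culture gained a call (0.0310).

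Over left-out arrays the sign also changed for uncalled values. Between the cultures in DMSO the range was -0.103 to 0.0255 for Timp1, -0.0663 to 0.269 for Plaur and -0.372 to 0.0821 for Mmp14. Between the cultures in PLX4720 it was -0.173 to 0.400 for Mmp2, -0.385 to 0.114 for Timp1, -0.127 to 0.0877 for Timp2 and -0.0752 to 0.764 for Plaur. For the difference of drug effects it was -0.384 to 0.0707 for Mmp14, -0.550 to 0.0225 for Mmp2, -0.397 to 0.0544 for Plau, -0.346 to 0.153 for Timp1 and -0.177 to 0.663 for Plaur. With the replicate number as a block (replicate block), 6, 6, 0, 0 and 0 of the genes were called in the 5 comparisons, as without it, while calls over all genes for the difference of drug effects rose from 9 to 52. Deviations of same-numbered arrays correlated at -0.08 to 0.09. The labels of same-numbered arrays also share a letter, A or B. What it marks is not given. Beyond the block and these correlations, a batch common to such arrays was not tested.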
